A study of Mus musculus with 12 samples.

Results

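The genes described here encode the machinery that burns fatty acids in mitochondria and the citrate cycle that takes up its product, together with the oxygen carrier myoglobin, in the embryonic mouse heart. They were chosen by gene symbol, with earlier results of these data known: 35 symbols were looked up in the platform's annotation and the brightest probe over the 12 arrays stood for each gene. A probe with that single symbol was found for 34 of the 35 genes, of 19057 genes on the array. No such probe was listed for Acsl1, which encodes a long-chain acyl-CoA synthetase. Of the 34 measured genes, 29 exceeded background on every array and 30 on at least 1 array, where an array's background was the size of its most negative value.

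Fatty acids enter the cell with help from lipases and transporters, are bound by fatty acid binding proteins, activated to acyl-CoA and carried across the mitochondrial membranes as carnitine esters. Inside, the spiral of beta-oxidation shortens them and hands electrons to the electron transfer flavoproteins, and the acetyl-CoA that is released enters the citrate cycle. The adult heart draws most of its energy from this route, whereas the early embryonic heart is known to depend largely on glycolysis, with mitochondria maturing as development proceeds.

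Total RNA was extracted from dissected tissue of mouse embryos and hybridised to Illumina Mouse WG-6 v2 bead arrays. There were 4 groups of 3 arrays: the atrioventricular canal (AVC), where the heart valves form, and the primary ventricle, labelled LV, each dissected at day 9 (E9) or day 10 (E10) of embryonic development. No mutation, transgene or drug is named for any group, and the labels state neither strain nor sex. They also leave unsaid whether the 3 arrays of a group came from separate litters. A p-value here reflects the scatter of RNA samples within groups, pooled over all 4 groups, and part of it may be technical. In dissected tissue, fewer cells of a type and less RNA per cell cannot be told apart.

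The 15 measured cardiomyocyte markers (troponins, myosins, other sarcomere genes, Ryr2 and Nkx2-5) were above background on all 12 arrays, and the 9 measured erythroid markers were too. LV E10 replicate 1 stood apart. Its mean correlation with the other arrays of its group was 0.933, against 0.957 to 0.988 for the other 11 arrays, and the array most like it was LV E9 replicate 2. Results that involve LV E10 are therefore given with and without it. Since the spread is pooled, this array also bears on p-values of comparisons without LV E10. When it was left out, limma calls (adjusted p under 0.05) over all 19057 genes went from 195 to 422 between the tissues at E9. For age in the AVC they went from 105 to 311. In both comparisons 0 of the 34 genes passed with or without it.

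Over all arrays, the genes were higher at E10 than at E9 in the ventricle on balance, and by less in the AVC. In the LV, 2 of 34 genes rose with age, Mb and Acadvl, and 0 fell (limma, Benjamini-Hochberg adjusted p under 0.05). Over all genes tested, 1.37% rose in that comparison, and 1.97% of the genes above background on all 12 arrays did. The median log2 difference of the 34 genes was 0.30 in the LV, with 28 above 0 and 6 below, beside a median of 0.00 over all genes and of -0.11 over the 8340 genes seen above background throughout. The median of the 34 was 0.49 with LV E10 replicate 1 left out, 0.19 with replicate 2 left out and 0.14 with replicate 3 left out. In the AVC, 0 of 34 genes passed the test with age, against 0.551% of all genes. An unadjusted p under 0.05 was reached there by 3 (Lpl, Acadl and Pdk4). In the LV it was reached by 9 (Mb, Slc25a20, Cpt2, Acadvl, Acadl, Ech1, Etfdh, Pdk4 and Idh2). The share of all genes at that unadjusted cutoff was not counted, so these counts have no background beside them. The median log2 difference of the 34 genes in the AVC was 0.07.

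**Figure D1:**
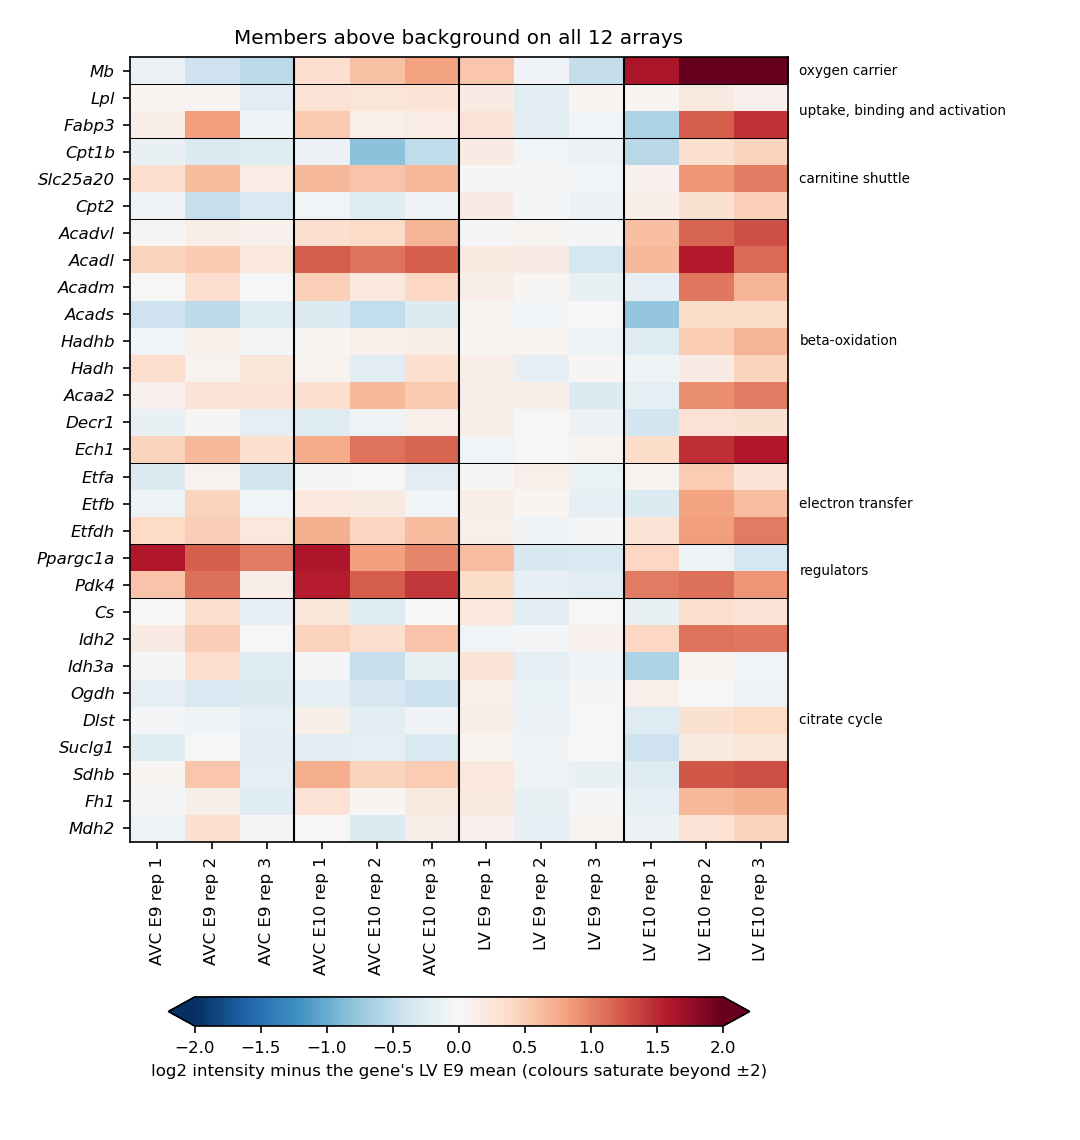
Heat map of the 29 genes above background on all 12 arrays, ordered by role, with one column per array. Colour is the log2 intensity minus the gene's mean over the LV E9 arrays and saturates beyond 2 in either direction. LV E10 replicates 2 and 3 are red for most genes, LV E10 replicate 1 is pale or blue for most of them, and Mb is the darkest row.

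Myoglobin, which binds oxygen in heart and skeletal muscle, had the largest difference of all these genes. The intensity of Mb was 181, 148 and 136 on the AVC E9 arrays and 288, 186 and 141 on the LV E9 arrays. It was 248, 294 and 343 in the AVC at E10 and 609, 3769 and 4096 in the LV at E10. All 3 LV E10 arrays lay above every other array, with replicate 1 far below the other two. Between E9 and E10 in the LV, Mb rose 10.8-fold (log2 difference 3.43, SE 0.66, n = 3 and 3, adjusted p = 0.0413 by limma). Without LV E10 replicate 1 the rise was 20.1-fold (log2 difference 4.33, SE 0.29, adjusted p = 0.000817). Leaving out any other LV array ended the call, as did leaving out AVC E9 replicate 1 or 3 or AVC E10 replicate 2 or 3: in 9 of 12 such fits the adjusted p was 0.0623 to 0.149. Over 21 other settings the log2 difference ran from 2.95 to 4.33 and passed in 10. The replicate block (adjusted p = 0.0543) and the fit of the 2 LV groups alone (adjusted p = 0.195) also ended the call. In the AVC, the 3 E10 arrays were also above the 3 E9 arrays, by 0.93 on the log2 scale (SE 0.66, adjusted p = 0.651). In the fit without LV E10 replicate 1, the SE of this AVC difference was 0.26 and its adjusted p 0.132.

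A second probe for Mb went the same way. It read 59.8, 36.2 and 40.0 in the LV at E9 and 138, 1061 and 1246 at E10, against 74.2, 66.7 and 86.8 in the AVC at E10. At E10, Mb by its brighter probe differed between the tissues by -2.85 (AVC minus LV, log2 scale, SE 0.66, adjusted p = 0.0723), which did not pass. Without LV E10 replicate 1 it was lower in the AVC by 13.4-fold (log2 difference -3.75, SE 0.29, adjusted p = 0.00197). The test of whether the change with age differed between the tissues gave -2.50 for Mb (SE 0.94, unadjusted p = 0.0271, adjusted p = 0.937). Without that array it gave -3.40 (SE 0.39, adjusted p = 0.0267), and Mb was then the 1 gene of 34 that passed, against 0.189% of all genes. With all arrays 0 of 34 passed that test of the difference, against 0.0315% of all genes, and 2 had an unadjusted p under 0.05 (Mb and Acadvl). The share of all genes at that unadjusted cutoff was not counted.

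The bases before the start of Mb and Acadvl are shown because these were the genes called with all arrays. Both windows cover 250 bases up to the RefSeq start on build GRCm38.p6, read 5′ to 3′ on the gene's strand, and capitals mark the hexamer AGGTCA or its reverse complement TGACCT, the core of the elements bound by many nuclear receptors. Mb lies on the minus strand at chr15:77022728-77022977, before the most downstream of its 3 listed starts, and Acadvl on the minus strand at chr11:70015429-70015678.
Mb: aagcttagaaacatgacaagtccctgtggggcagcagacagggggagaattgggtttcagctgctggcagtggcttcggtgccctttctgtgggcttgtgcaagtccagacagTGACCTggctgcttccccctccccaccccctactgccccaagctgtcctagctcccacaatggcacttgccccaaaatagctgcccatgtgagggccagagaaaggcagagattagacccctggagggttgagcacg
Acadvl: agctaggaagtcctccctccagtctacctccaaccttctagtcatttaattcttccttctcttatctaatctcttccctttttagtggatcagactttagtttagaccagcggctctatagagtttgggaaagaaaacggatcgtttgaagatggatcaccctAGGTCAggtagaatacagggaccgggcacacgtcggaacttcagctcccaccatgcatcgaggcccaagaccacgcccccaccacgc

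The hexamer began 137 bases before the start of Mb and 87 before that of Acadvl. The windows of Acadl and Ech1, whose differences with age in the LV were also among the largest, held 0 such hexamers. Promoter windows were matched for 30 of the 35 genes (none was used for Acaa2, Decr1, Lpl, Cpt1b and Idh3a). On either strand the hexamer was found in 7 of the 30, or 23.3%, and in 14.0% of 27025 mouse promoter windows of the same length. The longer string TCAAGGTCA, the element of the estrogen-related receptors that contains the hexamer, was in 0 of 30 and in 0.340% of all windows. The E-box CANNTG was in 63.3% of the 30 and 66.5% of all, and TATAAA was in 0 of 30 and 13.0% of all. These are letter matches only, and no binding was measured.

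Within beta-oxidation, Acadvl was the gene that passed with all arrays. It encodes the very long-chain acyl-CoA dehydrogenase of the inner membrane. Its intensity was 548, 583 and 548 in the LV at E9 and 848, 1257 and 1373 in the LV at E10. In the AVC it was 568, 606 and 595 at E9 and 699, 726 and 898 at E10. The E10 arrays lay above the E9 arrays in both tissues, and LV E10 replicate 1 lay within the range of the AVC E10 arrays. With age, Acadvl rose 2.03-fold in the LV (log2 difference 1.02, SE 0.17, adjusted p = 0.0292) and was 0.38 higher in the AVC (SE 0.17, adjusted p = 0.402). Without LV E10 replicate 1 the rise in the LV was 1.23 (SE 0.10, adjusted p = 0.00169), and Acadvl was then also lower in the AVC than in the LV at E10 by 1.71-fold (log2 difference -0.77, SE 0.10, adjusted p = 0.0118). A second Acadvl probe read 548, 626 and 648 in the LV at E9 and 815, 1102 and 1268 at E10, again without overlap. In the AVC it read 535, 508 and 648 at E9 and 580, 816 and 933 at E10, where the ages overlapped. By the brighter probe, the difference with age in the LV ran from 0.88 to 1.23 over 21 other settings and passed in 14 of them. Leaving out 1 of the LV E9 arrays, AVC E9 replicate 1 or LV E10 replicate 2 or 3 ended the call (adjusted p from 0.0518 to 0.115).

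Acadl encodes the long-chain acyl-CoA dehydrogenase. Its intensity was 253, 247 and 173 in the LV at E9 and 346, 666 and 483 at E10, and 305, 319 and 255 in the AVC at E9 and 512, 471 and 508 at E10. In both tissues all E10 arrays were above all E9 arrays. The difference was 1.12 in the LV (SE 0.24, adjusted p = 0.0508) and 0.77 in the AVC (SE 0.24, adjusted p = 0.209), so neither passed with all arrays. Acadl rose in the LV by 1.36 without LV E10 replicate 1 (SE 0.20, adjusted p = 0.00835). In that fit the AVC difference of Acadl had an SE of 0.18 and an adjusted p of 0.0840.

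Ech1 is an isomerase that prepares unsaturated fatty acids for the spiral. It read 1287, 1326 and 1397 in the LV at E9 and 1714, 3673 and 4043 at E10. In the AVC it read 1821, 2103 and 1673 at E9 and 2222, 2828 and 2987 at E10. The groups did not overlap between ages in either tissue, and at E9 the AVC arrays were all above the LV arrays. Its difference with age was 1.14 in the LV (SE 0.29, adjusted p = 0.0815) and 0.52 in the AVC (SE 0.29, adjusted p = 0.560). It rose in the LV by 1.53 without LV E10 replicate 1 (SE 0.14, adjusted p = 0.00211).

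Acads, the short-chain acyl-CoA dehydrogenase, was 719, 664 and 812 in the AVC and 998, 919 and 955 in the LV at E9. At E10 it was 792, 681 and 791 in the AVC and 558, 1229 and 1233 in the LV. The tissues did not overlap at E9 (difference -0.39, AVC minus LV, SE 0.27, adjusted p = 0.679). In the fit without LV E10 replicate 1, the SE of this E9 difference was 0.09 and its adjusted p 0.0699. LV E10 replicate 1 had the lowest value of all. The difference with age in the LV was -0.02 with all arrays (SE 0.27, adjusted p = 1) and 0.36 without that one (SE 0.10, adjusted p = 0.0456), so a single array set the sign. Another Acads probe had the opposite sign in this comparison with all arrays, as had other probes of Dlst and Idh3a, among 15 genes with a second probe above background on every array.

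For the remaining genes of the spiral, none passed with all arrays. Differences with age in the LV were 0.52 for Acadm (medium-chain dehydrogenase), 0.31 for Hadhb (beta subunit of the trifunctional protein), 0.18 for Hadh, 0.59 for Acaa2 (the thiolase of the last step) and 0.08 for Decr1, with adjusted p from 0.334 to 0.941. When LV E10 replicate 1 was left out, Acadm rose by 0.87 (adjusted p = 0.0148), Hadhb by 0.59 (adjusted p = 0.00528) and Acaa2 by 0.98 (adjusted p = 0.00877), and Hadh and Decr1 did not pass. The listed probe for Hadha, the alpha subunit, was above background on 6 of 12 arrays, at 11.3 to 35.3, so no change is given for it.

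**Figure D2:**
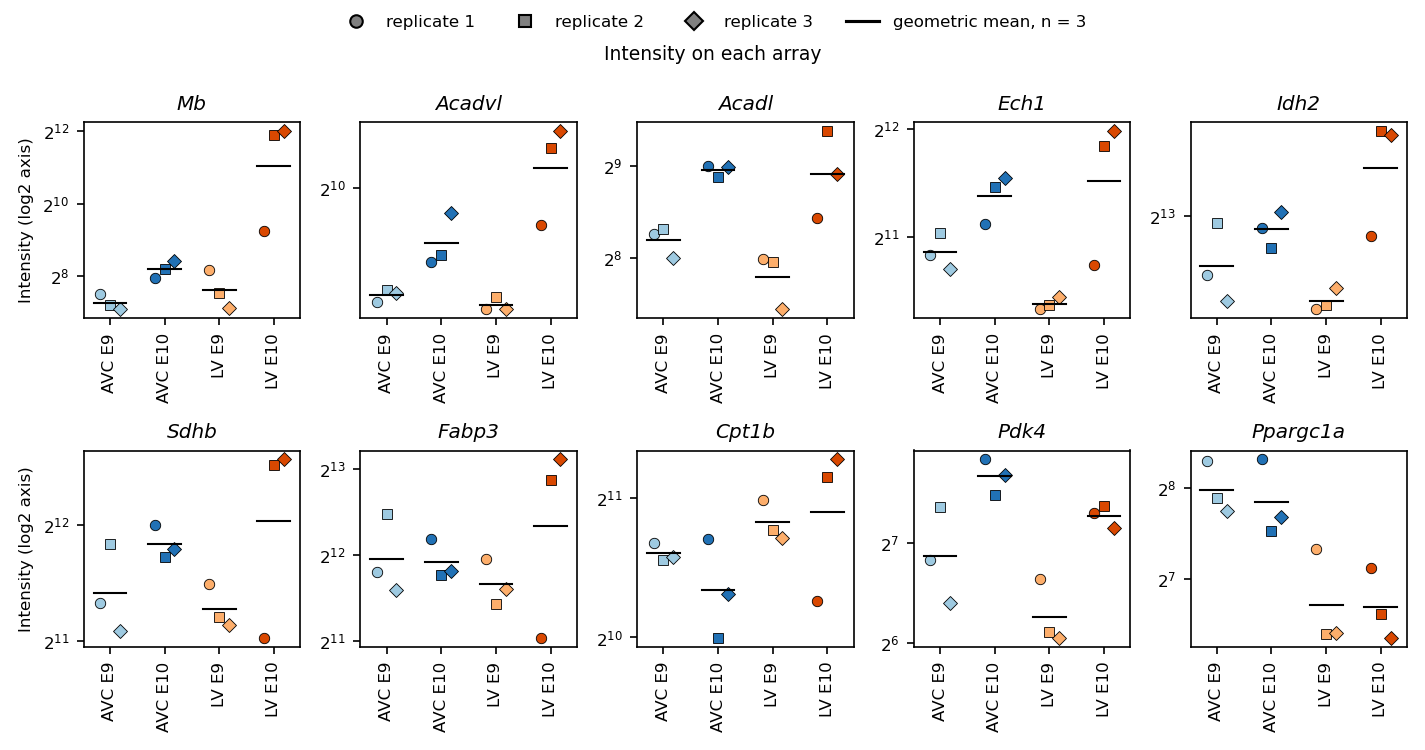
Intensity on each array for 10 genes, on a log2 axis, with symbols for replicates 1 to 3 and a line at the geometric mean of 3 arrays. For Mb, Sdhb and Fabp3 the LV E10 circle, replicate 1, lies far below the square and the diamond, whereas the 3 arrays of Pdk4 lie together; Ppargc1a is higher in the AVC than in the LV at both ages.

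For uptake and binding, Lpl and Fabp3 were well measured and Cd36 was not. Cd36, which encodes a fatty acid translocase, was above background on 0 of 12 arrays. Lpl, the lipase that frees fatty acids from lipoproteins, read 2770, 2757 and 2317 in the AVC at E9 and 3278, 3162 and 3243 at E10. In the LV it read 3024, 2312 and 2768 at E9 and 2746, 3049 and 2847 at E10. Its AVC arrays did not overlap between ages (difference 0.31, SE 0.10, unadjusted p = 0.0163, adjusted p = 0.250), and its LV arrays did (0.10, SE 0.10, adjusted p = 0.669, and 0.13 with adjusted p = 0.566 when LV E10 replicate 1 was left out).

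Fabp3, the fatty acid binding protein of heart muscle, read 3978, 2766 and 3124 in the LV at E9 and 2103, 7534 and 8878 at E10. In the AVC it read 3580, 5720 and 3095 at E9 and 4670, 3502 and 3610 at E10. LV E10 held both the lowest and the highest values of the 12 arrays. The difference with age in the LV was 0.68 (SE 0.51, adjusted p = 0.510), and without LV E10 replicate 1 it rose by 1.33, or 2.52-fold (SE 0.28, adjusted p = 0.0234).

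Of the carnitine shuttle, the muscle form of the entry enzyme was measured and the liver form was not. Cpt1a, the liver form, was above background on 0 of 12 arrays. Such values cannot tell absent RNA from a probe that does not work. Cpt1b, the muscle form of carnitine palmitoyltransferase 1, read 1638, 1501 and 1528 in the AVC and 2024, 1747 and 1678 in the LV at E9. At E10 it read 1668, 1021 and 1268 in the AVC and 1230, 2266 and 2475 in the LV. The tissues did not overlap at E9 (difference -0.22, AVC minus LV, SE 0.27, adjusted p = 0.905). At E10 the difference was -0.56 (SE 0.27, adjusted p = 0.416), and without LV E10 replicate 1 Cpt1b was lower in the AVC by 1.83-fold (log2 difference -0.87, SE 0.19, adjusted p = 0.0496).

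Slc25a20 exchanges acylcarnitine for carnitine across the inner membrane. Its intensity was 906, 907 and 855 in the LV at E9, 940, 1629 and 1799 in the LV at E10, 1119, 1373 and 985 in the AVC at E9 and 1386, 1322 and 1405 in the AVC at E10. By this probe LV E9 lay below all other arrays. With age in the LV the difference was 0.66 (SE 0.22, adjusted p = 0.155), and without LV E10 replicate 1 it rose by 0.95 (SE 0.12, adjusted p = 0.00575). A second probe above background on all 12 arrays differed by 0.20 with age in the LV with all arrays. Between the tissues at E9 its sign was opposite (-0.15, AVC minus LV, against 0.37).

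Cpt2, which returns the acyl group to coenzyme A inside the mitochondrion, was 1913, 1457 and 1634 in the AVC and 2246, 1962 and 1848 in the LV at E9. At E10 it was 1946, 1702 and 1909 in the AVC and 2196, 2473 and 2795 in the LV. The tissues overlapped at E9 (difference -0.28, SE 0.13, adjusted p = 0.455) and not at E10 (-0.42, SE 0.13, adjusted p = 0.154). The difference at E10 was -0.51 without LV E10 replicate 1 (SE 0.13, adjusted p = 0.0874).

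The electron transfer flavoproteins and their dehydrogenase pass the electrons of beta-oxidation to ubiquinone. Etfdh read 832, 743 and 758 in the LV at E9 and 944, 1379 and 1594 at E10, with no overlap (difference 0.72, SE 0.18, adjusted p = 0.0768). When LV E10 replicate 1 was left out, Etfdh rose by 0.93 (adjusted p = 0.00528) and Etfb by 0.72 (adjusted p = 0.0407). With all arrays Etfb differed by 0.38 (adjusted p = 0.492). Etfa differed with age in the LV by 0.27 with all arrays (adjusted p = 0.353) and by 0.39 without that array (adjusted p = 0.130). In the AVC the differences with age were 0.22 for Etfdh, 0.01 for Etfb and 0.11 for Etfa, with adjusted p of 0.722 or more.

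In the citrate cycle, 9 of the 10 genes were measured above background on every array and Sdha, the flavoprotein subunit of succinate dehydrogenase, was above background on 0 of 12. Idh2, the NADP-dependent isocitrate dehydrogenase of mitochondria, read 5416, 5530 and 5960 in the LV at E9 and 7479, 11914 and 11680 at E10. In the AVC it read 6297, 7952 and 5624 at E9 and 7777, 7109 and 8318 at E10. All LV E10 arrays were above all LV E9 arrays, whereas the AVC groups overlapped. The difference was 0.85 in the LV (SE 0.19, adjusted p = 0.0583) and 0.24 in the AVC (SE 0.19, adjusted p = 0.717). Idh2 rose in the LV by 1.07 without LV E10 replicate 1 (SE 0.14, adjusted p = 0.00558).

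Sdhb, the iron-sulfur subunit of succinate dehydrogenase, was 2890, 2368 and 2253 in the LV at E9 and 2087, 5882 and 6071 at E10. It was 2569, 3667 and 2179 in the AVC at E9 and 4112, 3391 and 3543 at E10. LV E10 again held the lowest array of all 12 and the highest. Sdhb differed by 0.76 with age in the LV (SE 0.39, adjusted p = 0.345) and rose by 1.26 without LV E10 replicate 1 (SE 0.21, adjusted p = 0.0121). Fh1, fumarate hydratase, rose by 0.69 without that array (adjusted p = 0.0165), and its difference was 0.40 with it (adjusted p = 0.413).

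For the other citrate cycle genes no difference with age passed. Differences in the LV were 0.15 for Cs (citrate synthase), -0.20 for Idh3a, 0.00 for Ogdh, 0.15 for Dlst, 0.00 for Suclg1 and 0.20 for Mdh2, with adjusted p of 0.584 or more. They were 0.29, 0.01, -0.05, 0.36, 0.21 and 0.37 in that order with LV E10 replicate 1 left out, and again none passed (adjusted p of 0.0674 or more). With all arrays, other Dlst probes above background on every array differed with age in the LV by 0.06, -1.72 and -1.42. Ogdh, the catalytic subunit of the oxoglutarate dehydrogenase complex, was singled out after its values were seen because its tissues did not overlap at either age. It read 749, 689 and 710 in the AVC and 920, 783 and 871 in the LV at E9, and 746, 681 and 637 in the AVC and 918, 863 and 797 in the LV at E10. The difference of Ogdh was -0.26 at E9 (SE 0.08, adjusted p = 0.227) and -0.32 at E10 (SE 0.08, adjusted p = 0.0956), or -0.27 at E10 with LV E10 replicate 1 left out (SE 0.09, adjusted p = 0.148).

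Of the regulators, Ppargc1a and Pdk4 were measured. Ppara, a nuclear receptor that controls fatty acid oxidation genes, was above background on 0 of 12 arrays. Ppargc1a encodes a coactivator that drives mitochondrial biogenesis. Its intensity was 315, 238 and 215 in the AVC and 161, 83.8 and 84.3 in the LV at E9, and 319, 184 and 206 in the AVC and 139, 97.4 and 81.4 in the LV at E10. Every AVC array was above every LV array. The difference of Ppargc1a between AVC and LV was 1.28 at E9 (2.42-fold, SE 0.33, unadjusted p = 0.00455, adjusted p = 0.143) and 1.15 at E10 (2.22-fold, SE 0.33, adjusted p = 0.141). Without LV E10 replicate 1 the E10 difference was 1.37 (SE 0.36, adjusted p = 0.0862). With age, Ppargc1a differed by -0.14 in the AVC (adjusted p = 1) and by -0.01 in the LV (adjusted p = 1), or -0.23 in the LV with LV E10 replicate 1 left out (adjusted p = 0.819).

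Pdk4, a kinase that shuts off pyruvate dehydrogenase and so spares glucose, read 99.7, 69.1 and 66.4 in the LV at E9 and 158, 165 and 142 at E10. In the AVC it read 114, 165 and 84.6 at E9 and 228, 179 and 206 at E10. The ages did not overlap in either tissue, and the LV E10 arrays lay close together. Pdk4 was 2.01-fold higher at E10 in the LV (SE 0.24 on the log2 scale, adjusted p = 0.0715) and 0.80 higher on the log2 scale in the AVC (SE 0.24, adjusted p = 0.207). The log2 difference in the LV was 0.99 without LV E10 replicate 1 (SE 0.29, adjusted p = 0.0655).

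How much these genes differed with age in the LV turned on LV E10 replicate 1. For 26 of the 29 genes above background on all arrays (89.7%), that array was the lowest of its group, as it was for 41.6% of the 8340 genes so measured. Set against the 3 LV E9 arrays, it lay below them all for 12 of the 29 (41.4%), within their range for 9 (31.0%) and above them for 8 (27.6%). Over the 8340 genes these shares were 42.7%, 28.8% and 28.5%. Without it, 15 of 34 genes rose in the LV and 0 fell, against 6.58% of all genes that rose and 11.9% of the 8340 genes above background. These 15 were Mb, Fabp3, Slc25a20, Acadvl, Acadl, Acadm, Acads, Hadhb, Acaa2, Ech1, Etfb, Etfdh, Idh2, Sdhb and Fh1. The median difference of the 29 genes was then 0.59, with 27 above 0, and with all arrays it was 0.31, with 26 above 0. Leaving out LV E10 replicate 2 or replicate 3 instead left 0 of the 34 called, as did leaving out any 1 of the LV E9 arrays or AVC E9 replicate 1. Calls over all genes fell too. Of 19057 genes, 261 rose with all arrays, and 40 and 69 rose without LV E10 replicate 2 and 3. Without LV E9 replicate 1, 2 and 3 these were 106, 64 and 52, and without AVC E9 replicate 1 they were 119.

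Counting arrays in place of fitting them, 8 of 34 genes had all LV E10 arrays above all LV E9 arrays and 0 had them all below, where 9.33% and 13.5% of all genes did. The 8 were Mb, Slc25a20, Acadvl, Acadl, Ech1, Etfdh, Pdk4 and Idh2. In the AVC, 7 of 34 genes had all E10 arrays above all E9 arrays (Mb, Lpl, Acadvl, Acadl, Acaa2, Ech1 and Pdk4), against 11.6% of all genes, and 1 had them below, Cd36, whose values were all under background, against 7.05%. With LV E10 replicate 1 left out, 26 of 34 had both remaining LV E10 arrays above all LV E9 arrays and 1 had them below (Hadha, near background), against 19.6% and 26.2% of all genes. Among the 29 genes above background throughout the count was 25, or 86.2%, against 27.0% of the 8340 genes.

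**Figure D3:**
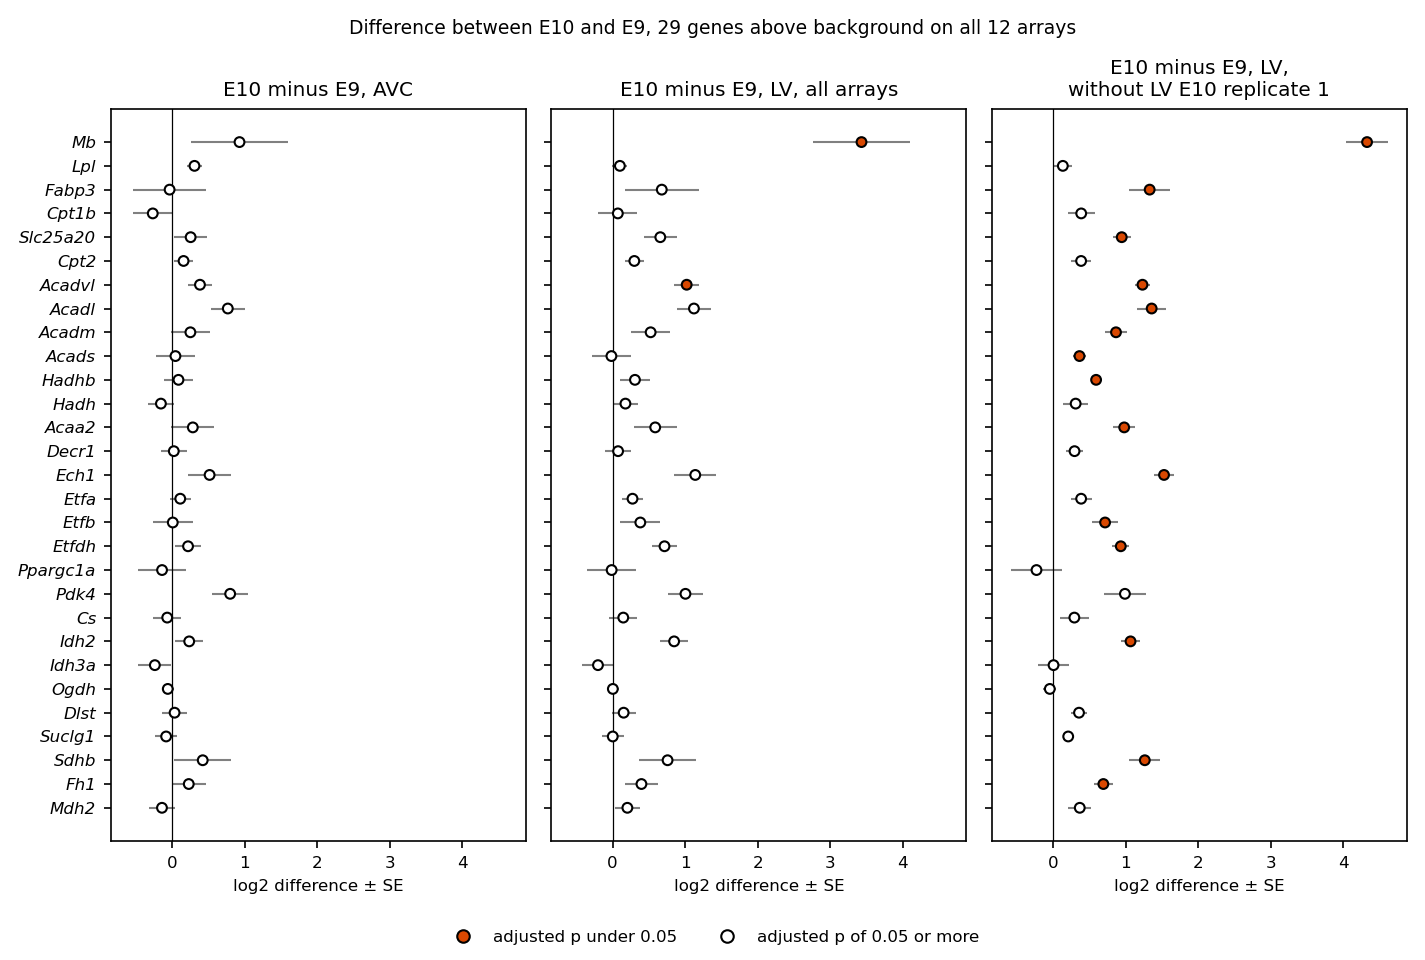
Log2 difference between E10 and E9 with its standard error for 29 genes, in the AVC, in the LV with all arrays and in the LV without LV E10 replicate 1. Filled points passed limma's test at an adjusted p under 0.05: 0 genes in the AVC, Mb and Acadvl in the LV, and 15 genes in the LV without that array.

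Between the tissues at one age, no gene of the 34 passed with all arrays. At E9, 0 passed against 1.02% of all genes, with 3 at an unadjusted p under 0.05 (Ppargc1a, Pdk4 and Ogdh). How many of all genes reached that unadjusted cutoff was not counted. The median difference of the 34 was 0.04 (AVC minus LV), with 19 above 0 and 14 below. Its sign was not stable: it was -0.08, with 11 above 0 and 22 below, when each array was scaled to one 75th percentile, and -0.07, with 13 and 20, when AVC E9 replicate 2 was left out. The median of the 8340 genes above background was 0.06 with the main settings and -0.08 with that scaling. Without AVC E9 replicate 2 the median of those 8340 genes was 0.13. At E9 the AVC arrays were all above the LV arrays for 6 genes (Cd36, under background throughout, Slc25a20, Acadl, Ech1, Etfdh and Ppargc1a), against 13.0% of all genes, and all below for 3 (Cpt1b, Acads and Ogdh), against 6.56%. Another probe above background on every array had the opposite sign at E9 for 4 of 15 genes (Acadvl, Idh3a, Slc25a20 and Suclg1).

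At E10, 0 of 34 passed against 2.30% of all genes, with 6 at an unadjusted p under 0.05 (Mb, Cpt2, Acadvl, Etfa, Ppargc1a and Ogdh). Here too, the share of all genes at the unadjusted cutoff was not counted. The median difference of the 34 was -0.21, with 6 above 0 and 27 below. It was -0.45 with LV E10 replicate 1 left out, -0.10 with replicate 2 left out and -0.04 (12 above 0 and 19 below) with replicate 3 left out, so single arrays set its size. With all arrays the median of all genes was 0.07 and that of the 8340 genes above background 0.16. With each array scaled to one 75th percentile, the median of the 34 was -0.46 and that of the same 8340 genes -0.09. All AVC arrays were above all LV arrays for 3 genes (Lpl, Ppargc1a and Pdk4), against 14.4% of all genes, and below for 4 (Mb, Cpt2, Etfa and Ogdh), against 3.72%. With LV E10 replicate 1 left out, these counts were 3, against 26.6% of all genes, and 23, against 10.5%. In the fit without it, 6 genes were lower in the AVC (Mb, Cpt1b, Acadvl, Acads, Hadhb and Suclg1), against 0.876% of all genes and 1.44% of those above background on all arrays, and 0 were higher. Leaving out LV E10 replicate 2 or 3 gave 0 calls among the 34. In those fits 20 and 42 of 19057 genes were lower in the AVC, and 121 and 253 were higher. Another probe above background on every array had the opposite sign at E10 with all arrays for 2 of 15 genes (Acadl and Dlst).

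Genes next to these in the same pathways were read from fixed lists. Among 35 other fatty acid oxidation genes measured, 1 rose with age in the LV, Fabp5, a fatty acid binding protein of skin and many other tissues. It read 133, 182 and 164 at E9 and 286, 585 and 558 at E10 (difference 1.52, SE 0.31, adjusted p = 0.0455). With LV E10 replicate 1 left out, 12 of the 35 rose and 1 fell, among them Fabp5 (1.85, adjusted p = 0.00575). Over all genes, 1.37% rose with all arrays. Without that array 6.58% rose, and 1377 of 19057 genes fell. At E9, Acsl5, an acyl-CoA synthetase, was lower in the AVC, at 1561, 1321 and 1401, than in the LV, at 2283, 2154 and 2004 (difference -0.59, SE 0.11, adjusted p = 0.0479). Among 28 other genes of the citrate cycle and of pyruvate entry, 0 passed in any comparison with all arrays, and 7 rose and 1 fell with age in the LV when that array was left out.

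Of 21 other regulators of oxidative metabolism, Sirt3, the main deacetylase of mitochondria, rose with age in the LV, from 614, 630 and 615 to 769, 955 and 955 (difference 0.52, SE 0.08, adjusted p = 0.0267, and 0.62 with adjusted p = 0.00160 when LV E10 replicate 1 was left out). All 3 LV E10 arrays were above the E9 arrays, with replicate 1 again the lowest. Lpin1 passed between the tissues at E10 (adjusted p = 0.0397), at 32.0, 48.0 and 41.3 in the AVC and under background on every LV E10 array. It did not pass when LV E10 replicate 1 was left out (adjusted p = 0.0596).

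Of 49 respiratory chain and ATP synthase genes, 1 rose and 1 fell with age in the LV, where 1.37% of all genes rose and 1% fell. Cox8b, the muscle form of a cytochrome c oxidase subunit, went from 48.3, 25.7 and 47.4 to 174, 1104 and 1275 (difference 4.01, SE 0.68, adjusted p = 0.0320), with replicate 1 far below the other two, as for Mb. One LV E9 array was under background for Cox8b, and the difference was 4.93 when LV E10 replicate 1 was left out (SE 0.29, adjusted p = 0.000447). In the AVC, Cox8b went from 74.4, 97.8 and 64.0 to 213, 225 and 223, which did not pass. Uqcrq, a subunit of complex III, fell from 242, 313 and 373 to 125, 111 and 146 (difference -1.26, SE 0.23, adjusted p = 0.0370). The median of the 49 was 0.46 in the LV and 0.14 in the AVC. With LV E10 replicate 1 left out it was 0.69 in the LV, and 33 of the 49 rose and 1 (Uqcrq) fell. Glycolysis genes leaned the other way: the median of 20 was -0.26 in the LV and -0.38 in the AVC, with 0 called in either. With that array left out the LV median was -0.05, and 2 glycolysis genes rose and 2 fell. Over all genes in that fit, 6.58% rose and 1377 of 19057 fell.

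The summed intensity of the 34 genes shows the same split of the LV E10 arrays. It was 62518, 108883 and 109446 there, 64972 to 72563 on the LV E9 arrays, 62037 to 79744 on AVC E9 and 70482 to 77681 on AVC E10. The respiratory chain list split likewise in LV E10, at 317241, 479469 and 474326. The 15 cardiomyocyte markers summed to 185140, 204559 and 193170 on the same arrays, and the 15 chamber myocardium markers (Nppa, Nppb and others) to 82622, 84744 and 81634. Myl2 and Myh7 are in both of these marker lists, and such sums are carried by the brightest probes. The mean log2 level of the chamber markers was 9.05, 9.88 and 9.83 on the LV E10 arrays and that of the 15 cardiomyocyte markers 12.4, 12.8 and 12.8, against 10.3, 11.1 and 11.1 for the 29 oxidation genes, so the chamber markers too were lowest on replicate 1. The 9 erythroid markers summed to 203622 on LV E10 replicate 1, the highest of all 12 arrays, and to 147683 and 117717 on the other two. The epicardium list (7 genes measured) summed to 3078, 5725 and 6940 on the LV E10 arrays and to 553 to 1202 on LV E9. The 12 markers of liver and gut summed to 4384 on LV E10 replicate 1, the highest of all 12 arrays, and to 1142 and 521 on replicates 2 and 3. The part of chamber muscle, blood, epicardium or endoderm in the results was not tested.

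Of the 6 adipocyte markers, Pparg alone was above background, on 1 array. Of the 7 measured skeletal muscle markers, Acta1, Tnni2 and Tnnt1 were above background on all 12 arrays. Myog, a factor of muscle differentiation, was above it on 7 and Ckm on 2, while the muscle determination factors Myod1 and Myf5 were on none. Of the 12 markers of liver and gut, Ttr and Apoe were above background on all 12 arrays, Apom on 11, Cdh1 on 10 and Apoa1 on 9. Afp and Apoa2 were above it on 7 each and Rbp4 on 4, and Alb, Foxa1, Foxa2 and Epcam on none. The skeletal muscle list summed to 9208, 11204 and 14687 on the LV E10 arrays and to 17521 to 22445 on LV E9.

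**Figure D4:**
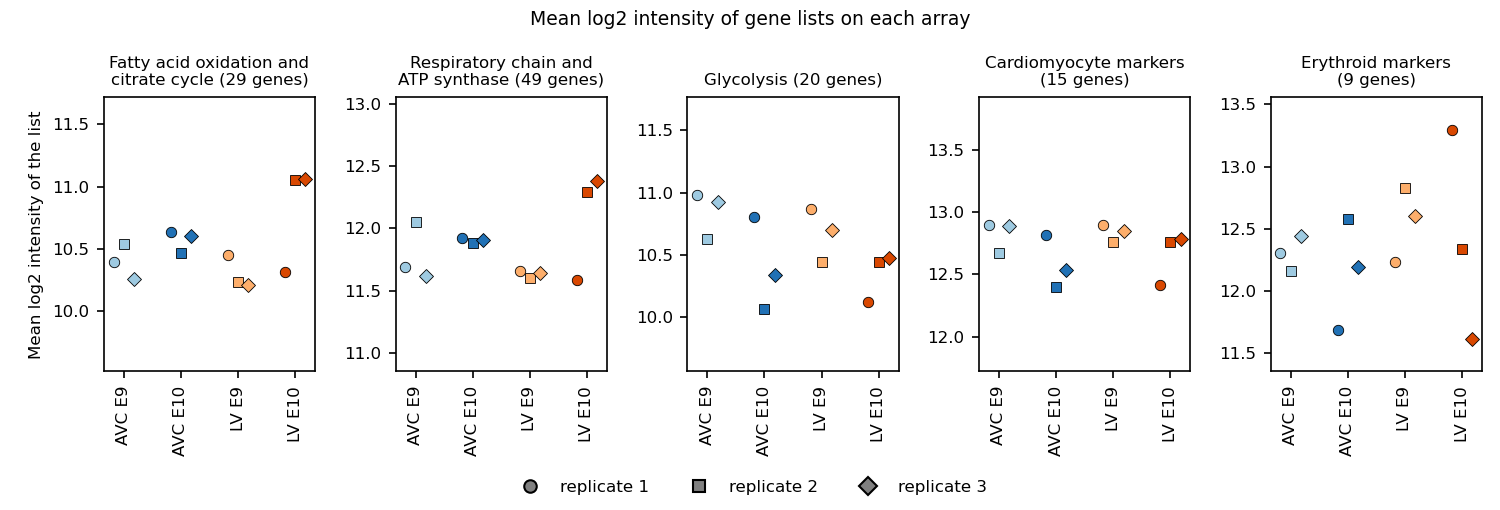
Mean log2 intensity per array of 5 gene lists, each panel spanning the same range, with symbols for replicates 1 to 3. In LV E10 the 29 oxidation genes stand at 10.3 on replicate 1 and at 11.1 on replicates 2 and 3, the respiratory chain splits the same way, cardiomyocyte markers split by less, and erythroid markers are highest on replicate 1.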

How the data were processed

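The authors profiled dissected AVC and ventricle RNA on Illumina Mouse WG-6 v2 arrays, and the deposited values are probe intensities on a linear scale. Each array had the same mean of 386 over 45281 probes, and 34.7% of values were below 0, so they had been background subtracted and scaled. Neither the labels nor the methods say which program did so. GeneSpring GX is named for the study's own comparisons.

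From these values, intensities under 1 (36.8% of values) were set to 1 and log2 was taken. Probes with 1 gene symbol in the platform annotation (34885 probes) were kept, with the probe of highest mean for each of 19057 genes. Background limits, set on each array by its most negative value, were 22.4 to 29.6. Linear models with limma 3.58.1 in R 4.3.3 were fitted to all 12 arrays in 4 groups, with eBayes and Benjamini-Hochberg adjustment over all genes in each of 5 two-sided comparisons, at an adjusted p of 0.05. The script was tested on simulated data. The number of arrays limits the precision.

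Promoter bases are from RefSeq (GRCm38.p6). The genes and lists were chosen with earlier results of these data known. Genes given on every array were those called, the 6 with the largest differences in each comparison between groups, and Mb, Cpt1a, Cpt1b, Cd36, Fabp3, Lpl, Ppara, Ppargc1a and Pdk4. Alternatives were a floor of 16, an offset of 50, quantile and 75th percentile scaling, a background filter, limma with a trend, the 2 groups alone, a replicate block, the mean of all probes, the methods' thresholds (4-fold and p of 0.01) and leaving out each array.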

Additional observations from a re-analysis of the deposited data

How the results depend on the processing

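Over 24 differences of named genes and 22 alternatives (528 values), 491 kept their direction and side of the threshold, 19 were no longer past it, 18 newly passed, and 0 changed direction. These were the called genes and the 6 largest differences in each comparison between groups, so smaller differences were left out. Leaving out an array of a group not compared cannot change a difference. Outside this pick, the LV difference with age changed sign without LV E10 replicate 1 for Acads (-0.02 to 0.36) and Idh3a (-0.20 to 0.01). The counts of called genes moved as follows, and the cause was not tested unless the setting itself gives it. For AVC against LV at E9, 1 gene (Ppargc1a) passed with the replicate block, where 134 of all 19057 genes passed. At E10, quantile normalization gave 1 (Ogdh), one 75th percentile 2 (Cpt2 and Ogdh), testing only genes above background in a group 1 (Mb), the replicate block 2 (Ppargc1a and Ogdh), and 4-fold with an unadjusted p of 0.01 1 (Mb). In that order, the calls over all genes were 268, 283, 618 (of 9931 tested), 419 and 269, against 438 with the main settings. For age in the LV, the background filter gave 7 (Mb, Acadvl, Acadl, Ech1, Etfdh, Pdk4 and Idh2, with fewer genes tested), quantile normalization 3 (Mb, Acadvl and Idh2), the mean of all probes 2 higher (Mb and Acadvl) and 1 lower (Dlst), the 2 groups alone 0, the replicate block 1 (Acadvl), and 4-fold with p of 0.01 1 (Mb). Over all genes, 487 of 9931 rose with the background filter, which left 29 of the genes described here. In the same order, 267, 218 (with 124 lower), 35, 322 and 214 of 19057 rose under the rest, against 261 with the main settings. Leaving out single arrays gave 0 genes at E9 and for age in the AVC each time, 0 to 6 at E10, 0 to 15 for age in the LV and 0 to 1 for the difference between tissues. Over all 19057 genes, those fits called 59 to 422 at E9, 25 to 465 for age in the AVC and 97 to 730 at E10. They called 54 to 2630 for age in the LV and 10 to 43 for the difference between tissues. Replicate numbers were not taken as pairs, since the labels give no shared litter or batch and not every same-number pair deviated together: deviations of 18 same-number pairs correlated at -0.365 to 0.524, 9 of them over 0.1, although 8 of 12 arrays were closest to an array of their own number. With 3 arrays a group and LV E10 replicate 1 apart from its group, a rise that missed the threshold is not shown to be absent. Genes under background (Cd36, Cpt1a, Ppara and Sdha) have no measured difference here, and 1 probe per gene cannot tell transcripts apart.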
